A study of Mus musculus with 8 samples.

Results

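The 10 genes examined encode the 8 SMAD proteins (Smad1 to Smad7 and Smad9) and the SMAD repressors Ski and Skil, taken as the rows of the count table whose symbol matched, out of 55471 rows. No symbol was listed more than once, and all 10 genes passed the filter on low counts, among 13818 genes tested. The cells were SV-LECs (svLEC in the labels), a mouse line labelled as lymphatic endothelial, immortalized with SV40 and derived from mesenteric adventitial tissue. RNA came from untreated SV-LECs (n = 4 libraries) and from SV-LECs exposed to TGFβ1 at 10 ng/ml for 72 h (n = 4 libraries), and mRNA reads, each 75 bases long and from 1 end of the fragment, were counted per gene. Every library came from the same immortalized line, and the study's Methods call the 4 samples of a group technical replicates. The p-values therefore measure only the spread between libraries of a single experiment.

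SMAD proteins carry the signal of the TGFβ family from the receptors to the nucleus. The receptor SMADs are phosphorylated at the membrane, SMAD2 and SMAD3 mainly by TGFβ and activin receptors and SMAD1, SMAD5 and SMAD9 mainly by BMP receptors, and then join the common partner SMAD4. SMAD6 and SMAD7 are inhibitory SMADs that block receptors or receptor SMADs, and SKI and SKIL (also called SnoN) bind SMAD complexes on DNA and recruit co-repressors. SMAD7, SMAD6 and SKIL are known as feedback genes, because SMAD complexes bind their control regions. In endothelial cells TGFβ can reach both branches through different type I receptors.

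After 72 h of TGFβ1, Smad3, Smad7 and Skil rose 1.64-fold, 1.86-fold and 1.55-fold, while Smad9, Smad6 and Smad4 fell to 0.301, 0.487 and 0.742 of the untreated level. Ski and Smad5 rose by smaller amounts, 1.20-fold and 1.12-fold. Smad1 and Smad2 did not pass the test. By edgeR's likelihood ratio test, with p-values adjusted after Benjamini and Hochberg (FDR) and a threshold of 0.05, 5 of the 10 genes were higher and 3 were lower. Over all 13818 genes tested 75.6% were called, 37.6% higher and 38.0% lower, so the number of calls among the 10 genes was near the background. The median log2 fold change was 0.10 over the 10 genes and -0.0064 over all genes. Log2 fold changes above 0.5 were found for Smad3, Smad7 and Skil, against 21.5% of all genes, and below -0.5 for Smad9 and Smad6, against 17.8%. The latter 2 genes also changed by more than 1 log2 unit, as did 17.5% of all genes in either direction. The sizes of the changes ranged widely: the absolute log2 fold change of Smad9 exceeded that of 93.0% of the genes tested, and that of Smad2 exceeded 0.630%.

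**Figure D1:**
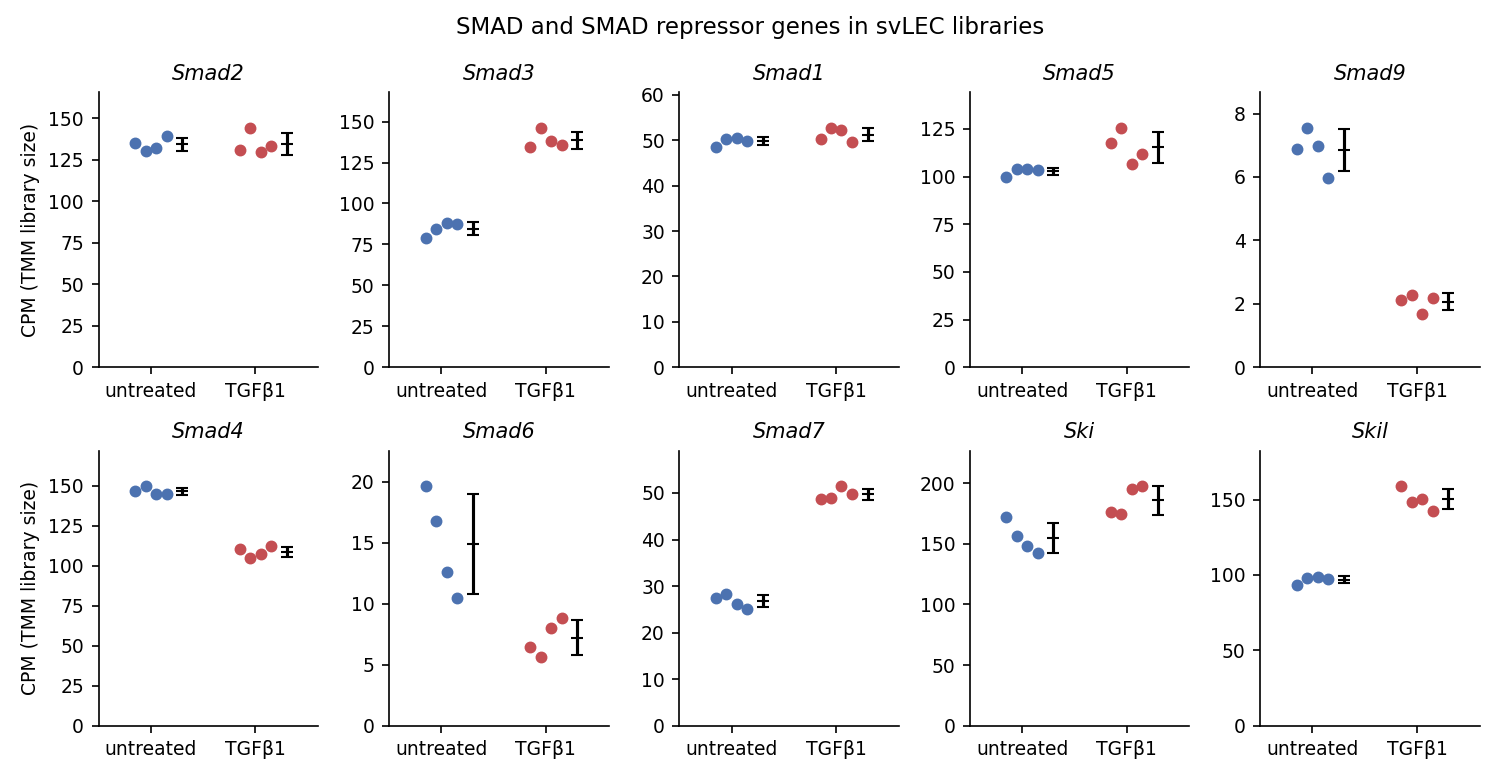
CPM of each gene in each library, the read count scaled to a common library size with TMM factors, which even out composition, with a separate vertical axis from 0 for each gene. Blue points are the 4 untreated and red points the 4 TGFβ1-treated libraries, in the order of their labels, and the bar is the mean ± SD. The groups overlap for Smad2 and Smad1 and are apart for the other 8 genes.

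The promoters of 3 genes are shown because Smad6 and Smad9 had the largest falls and Smad3 the largest rise among the genes with a promoter sequence used here. They are RefSeq sequences of GRCm38.p6, and each runs from 250 bases before to 30 bases after the start of transcription. Smad6 is shown from the minus strand of chr9:64022030-64022309, Smad9 from the plus strand of chr3:54755332-54755611 and Smad3 from the minus strand of chr9:63757965-63758244. Capitals mark the short SMAD element GTCT on either strand, the palindrome GTCTAGAC that holds it once on each strand, and GGCGCC, a GC-rich element known to bind BMP SMADs.
Smad6: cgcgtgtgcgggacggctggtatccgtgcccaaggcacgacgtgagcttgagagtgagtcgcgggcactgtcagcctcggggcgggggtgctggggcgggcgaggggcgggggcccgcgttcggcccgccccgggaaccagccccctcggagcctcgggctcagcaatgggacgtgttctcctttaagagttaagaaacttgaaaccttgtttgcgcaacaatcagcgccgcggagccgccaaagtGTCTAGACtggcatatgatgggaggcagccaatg
Smad9: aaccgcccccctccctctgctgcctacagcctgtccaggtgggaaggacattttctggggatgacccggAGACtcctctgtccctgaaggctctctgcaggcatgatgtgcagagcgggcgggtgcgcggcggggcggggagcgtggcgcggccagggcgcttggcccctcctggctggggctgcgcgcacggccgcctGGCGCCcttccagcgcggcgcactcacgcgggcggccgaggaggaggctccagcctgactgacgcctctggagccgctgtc
Smad3: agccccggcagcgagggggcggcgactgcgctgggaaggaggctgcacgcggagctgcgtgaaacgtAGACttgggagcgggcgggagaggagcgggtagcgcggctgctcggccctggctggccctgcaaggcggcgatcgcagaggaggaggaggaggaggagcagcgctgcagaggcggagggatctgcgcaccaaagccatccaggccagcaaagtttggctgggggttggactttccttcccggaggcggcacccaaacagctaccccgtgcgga
The Smad6 window held 1 copy of the full palindrome, whose first base lay 4 bases before the start of transcription. Among 32851 promoter windows of the same length, 63 held this palindrome (0.192%). The short element alone was found in 86.2% of windows and GGCGCC in 10.9%. The Smad9 window held the short element beginning 181 bases and GGCGCC beginning 51 bases before the start, and the Smad3 window held the short element beginning 183 bases before it. The Ski window held GGCGCC and no short element, and the Smad1 window held none of the 3 motifs. All 3 windows of Smad5 held the short element, and 2 of them held GGCGCC. Windows of Smad2, Smad4, Smad7 and Skil were not read, so it is not known here whether they hold these motifs. Smad7, which rose most of the genes examined, is thus not covered. A match describes the letters only and was not a measurement of binding.

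Smad2 and Smad3, the TGFβ and activin receptor SMADs, behaved differently from each other. Smad3 (ENSMUSG00000032402, chromosome 9 of GRCm38, 63646767 to 63757994) stood at 79.2, 84.1, 88.1 and 87.4 CPM in the untreated libraries and at 135, 146, 138 and 136 CPM in the TGFβ1-treated libraries. Every treated library lay well above every untreated library. The log2 fold change was 0.71 (standard error 0.0486, FDR = 2.81e-47 from edgeR's likelihood ratio test). Smad2 (ENSMUSG00000024563, chromosome 18, 76241580 to 76310963) stood at 135, 130, 132 and 139 CPM without and at 131, 144, 130 and 133 CPM with TGFβ1. The groups overlapped, and the log2 fold change of 0.0037 had a 95% interval from -0.087 to 0.094 (FDR = 0.947 from edgeR). A change of Smad2 as large as that of Smad3 lies outside this interval. Within a library, the ratio of Smad3 to Smad2 per length of exon went from 1.00 ± 0.055 to 1.64 ± 0.035 (SD, n = 4), and the groups did not overlap.

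The BMP receptor SMADs moved in different directions, with a deep fall of the least abundant member. Smad9 (ENSMUSG00000027796, chromosome 3, 54755582 to 54801257), also known as Smad8, stood at 6.89, 7.55, 6.99 and 5.98 CPM in untreated libraries and at 2.11, 2.29, 1.67 and 2.17 CPM in TGFβ1-treated libraries. Each treated library held less than every untreated library, on 34 to 201 reads per library. The log2 fold change was -1.73 (standard error 0.145, FDR = 1.80e-35 from edgeR), with a 95% interval from -2.02 to -1.45. Smad5 (ENSMUSG00000021540, chromosome 13, 56703010 to 56742377) rose slightly, from 99.9, 104, 104 and 103 CPM to 117, 126, 106 and 112 CPM. The treated libraries lay above the untreated ones by a narrow margin and varied more among themselves. Its log2 fold change was 0.16 (standard error 0.0527, FDR = 0.00273 from edgeR), and with total counts in place of TMM factors it was 0.097 and no longer significant (FDR = 0.0793 from edgeR). Smad1 (ENSMUSG00000031681, chromosome 8, 79338395 to 79399518) stood at 48.5, 50.4, 50.6 and 49.8 CPM without and at 50.4, 52.7, 52.3 and 49.7 CPM with TGFβ1. Smad1 did not pass the test, with a log2 fold change of 0.040 and a 95% interval from -0.054 to 0.13 (FDR = 0.450 from edgeR). In this family the ratio of Smad9 to Smad1 per length went from 0.160 ± 0.015 to 0.047 ± 0.0065 (SD, n = 4), and with the length of the longest transcript in place of all exons from 0.097 to 0.028.

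Smad4, the partner that both branches share, fell. Smad4 (ENSMUSG00000024515, chromosome 18, 73639009 to 73703780) stood at 147, 150, 145 and 145 CPM in untreated libraries and at 111, 105, 107 and 112 CPM after TGFβ1. The groups lay far apart relative to the spread within them. The log2 fold change was -0.43 (standard error 0.0412, FDR = 7.90e-25 from edgeR). Per length, the ratio of Smad3 to Smad4 went from 0.387 ± 0.022 to 0.856 ± 0.057 and that of Smad2 to Smad4 from 0.387 ± 0.015 to 0.523 ± 0.039 (SD, n = 4).

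The inhibitory SMADs moved in opposite directions. Smad7 (ENSMUSG00000025880, chromosome 18, 75367529 to 75395935), which acts on TGFβ receptors as well as BMP receptors, stood at 27.4, 28.2, 26.2 and 25.2 CPM in untreated libraries and at 48.7, 48.9, 51.4 and 49.8 CPM in TGFβ1-treated libraries. The libraries of each group were close together and the groups far apart. The log2 fold change was 0.89 (standard error 0.0548, FDR = 5.57e-59 from edgeR). Smad6 (ENSMUSG00000036867, chromosome 9, 63953076 to 64022059), which acts mainly on the BMP branch, stood at 19.6, 16.8, 12.6 and 10.5 CPM without and at 6.44, 5.60, 8.02 and 8.81 CPM with TGFβ1. Smad6 varied more between libraries than any other of the 10 genes, with a biological coefficient of variation of 0.169 against 0.036 to 0.074 for the others, and the lowest untreated library was still above the highest treated one. Its log2 fold change was -1.04 (standard error 0.186, 95% interval -1.40 to -0.67, FDR = 6.01e-08 from edgeR). The ratio of Smad7 to Smad6 per length was 0.989, 1.19, 1.48 and 1.70 in untreated libraries and 5.36, 6.19, 4.55 and 4.00 in treated libraries. Each treated library lay above each untreated library in this ratio.

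Of the repressors, Skil rose more than Ski. Skil (ENSMUSG00000027660, chromosome 3, 31095058 to 31122577) stood at 93.5, 97.7, 98.7 and 97.4 CPM in untreated libraries and at 159, 149, 150 and 143 CPM after TGFβ1. All treated libraries lay above all untreated ones. The log2 fold change was 0.63 (standard error 0.0456, FDR = 1.53e-42 from edgeR). Ski (ENSMUSG00000029050, chromosome 4, 155154075 to 155222592) stood at 172, 157, 148 and 143 CPM without and at 177, 174, 195 and 197 CPM with TGFβ1. The highest untreated library nearly reached the lowest treated library. The log2 fold change was 0.26 (standard error 0.0621, FDR = 3.89e-05 from edgeR), and its 95% interval of 0.14 to 0.39 did not meet that of Skil, 0.54 to 0.72. The ratio of Skil to Ski per length went from 0.361 ± 0.036 to 0.466 ± 0.045 (SD, n = 4), so Ski stayed the more abundant repressor transcript. The highest untreated library stood at 0.3921 and the lowest treated one at 0.4145. With the length of the longest transcript in place of all exons the ratio went from 0.517 to 0.667.

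**Figure D2:**
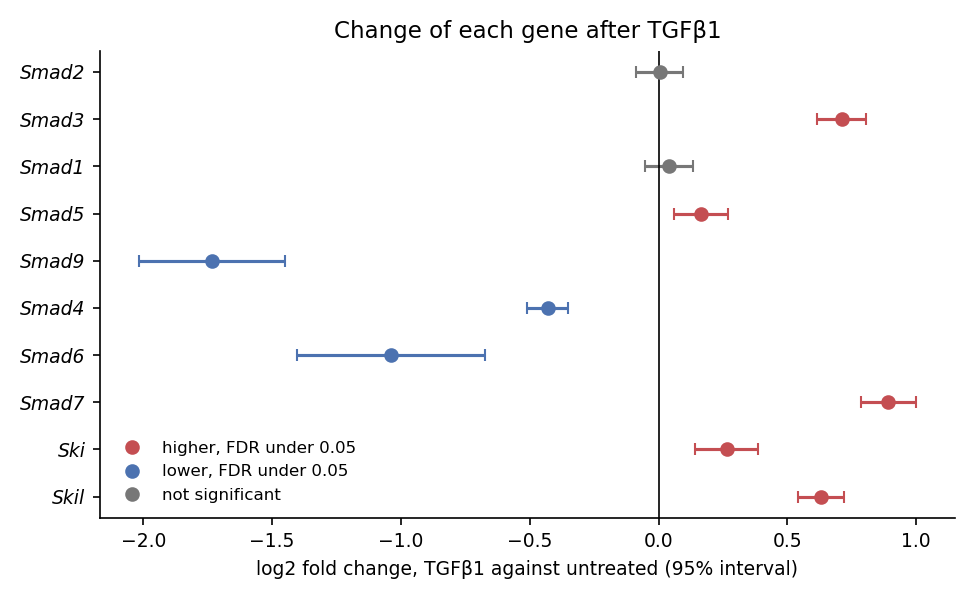
Log2 fold change of each gene, TGFβ1 against untreated, with its 95% interval from edgeR's fit of 4 libraries per group. Red marks genes that were higher and blue genes that were lower at an FDR under 0.05, and grey marks Smad2 and Smad1, whose intervals include 0. Smad9 and Smad6 lie at -1.73 and -1.04 and Smad7 at 0.89.

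All 8 genes that passed the test also had groups that did not overlap, 5 higher and 3 lower, against 69.8% of all genes tested, 34.7% higher and 35.1% lower. The same 8 genes were called when the quasi-likelihood test of edgeR was used instead, where the FDRs of the smallest changes were 0.0053 for Smad5 and 0.000761 for Ski. Exact stretches of read length in the annotated transcripts of the 10 genes were rarely shared with other genes. Copies with a mismatch or outside the annotation were not searched. Smad5 shared 0.344% of its stretches of 75 bases with Gm27301 on the same strand, a gene with 0 or 1 read per library, and the other 9 genes shared none with another gene.

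Levels of different genes were compared as CPM per kilobase of exon, with all annotated exons of a gene joined, so that the order rests on the annotated lengths. In untreated SV-LECs Smad4 was highest at 39.5 ± 0.618, followed by Ski at 27.8 ± 2.28 (SD, n = 4). Smad3 at 15.3 ± 0.736 and Smad2 at 15.3 ± 0.433 could not be ordered, since their libraries overlapped. Smad5, Skil and Smad1 followed at 13.9, 9.99 and 7.95, Smad7 at 5.91 ± 0.295 and Smad6 at 4.64 ± 1.28 overlapped, and Smad9 was lowest at 1.28 ± 0.121. After TGFβ1 the order changed at the top. Ski at 33.4 ± 2.15 stood above Smad4 at 29.3 ± 0.893 and Smad3, whose libraries lay between 24.3 and 26.4. Smad5 at 15.5 ± 1.10, Skil at 15.5 ± 0.688 and Smad2 at 15.3 ± 0.752 overlapped and could not be ordered. Smad7, whose libraries lay between 10.8 and 11.4, moved above Smad1 at 8.19 ± 0.232. Smad6 at 2.25 ± 0.456 and Smad9 at 0.384 ± 0.050 were lowest. With the length of the longest transcript, which is much shorter than all exons for Smad1 and Skil, parts of this order changed. In treated libraries Smad1 at 13.6 then lay above Smad7 at 11.6, Skil at 22.3 lay above Smad5 at 17.5 and Smad2 at 16.6, and Ski and Smad4 overlapped.

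The summed level of the 8 SMAD transcripts per length went from 104 ± 1.22 to 107 ± 1.74 CPM per kilobase (SD, n = 4), with the highest untreated library at 105.27 and the lowest treated library at 105.4. With total counts in place of TMM factors it went from 106.1 to 104.5 and the groups overlapped, so the direction of the sum depends on the scaling, while the shares of the genes in it do not. Smad3 went from 14.7% ± 0.816 to 23.4% ± 0.598 of the sum and Smad7 from 5.70% ± 0.220 to 10.3% ± 0.379 (SD, n = 4). Smad4 went from 38.1% ± 0.184 to 27.4% ± 1.10, Smad6 from 4.47% ± 1.20 to 2.11% ± 0.443 and Smad9 from 1.23% ± 0.104 to 0.359% ± 0.043. For these 5 genes the shares of the groups did not overlap, and the shares of Smad1, Smad2 and Smad5 overlapped, except that Smad5 was higher without overlap when the longest transcript gave the length. Among the 5 receptor SMADs, those of the BMP branch made up 43.1%, 43.9%, 43.1% and 42.1% in untreated libraries and 38.2%, 37.6%, 36.7% and 37.1% in treated libraries. Smad3 and Smad9, the receptor SMADs with the largest changes, lie on opposite sides of this share, but Smad9 was only a small part of it. Of the sum of the 8 SMADs, Smad5 went from 13.4% to 14.5% and Smad1 from 7.67% to 7.65%, both with overlap. The BMP share thus fell mainly because Smad3 rose, and it does not show a lower level of the BMP receptor SMADs. Ski and Skil together amounted to 0.540 ± 0.034 of Smad2, Smad3 and Smad4 in untreated and to 0.703 ± 0.034 in treated libraries. These shares are descriptions of transcripts, and no test was made of them.

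**Figure D3:**
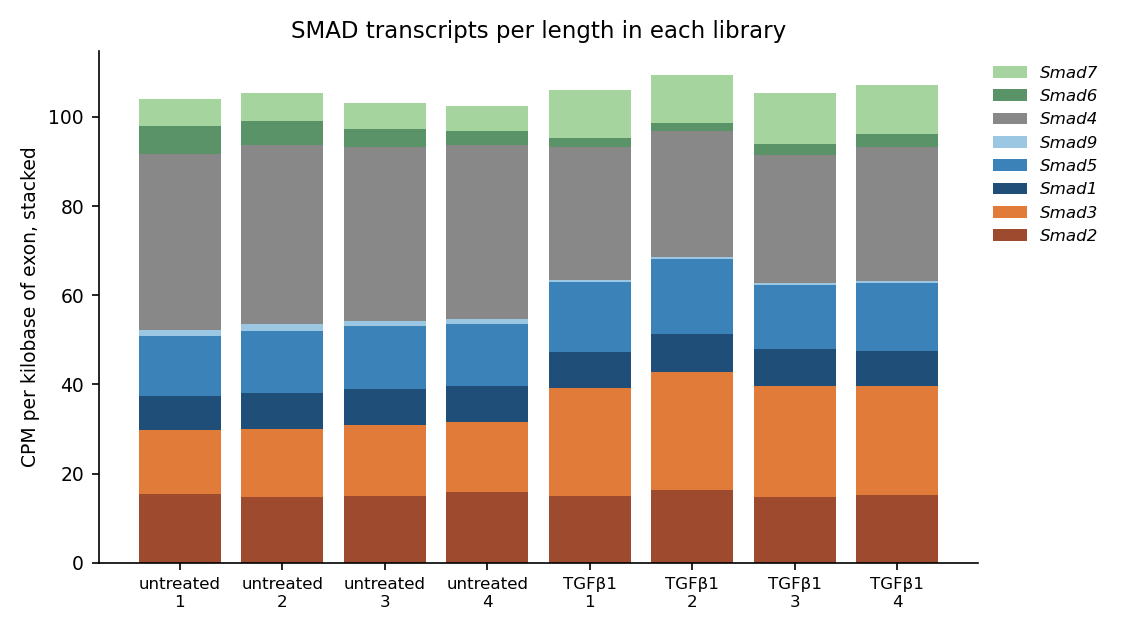
Stacked bars of the 8 SMAD transcripts in each library, in CPM per kilobase of exon on an axis that starts at 0. The 4 bars on the left are untreated and the 4 on the right TGFβ1-treated libraries. The total is between 102 and 109 in all 8 libraries, with more Smad3 and Smad7 and less Smad4, Smad6 and Smad9 on the right.

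The spread of Smad6 and Ski within the groups followed a property of the libraries. In each library the deviation of all genes from their mean was regressed on the GC content of their longest transcript, and the slope was between -0.14 and -0.017 log2 units per 10 percentage points of GC in untreated libraries and between 0.038 and 0.13 in TGFβ1-treated libraries. Smad6, at 60.8% GC, lay above 97.3% of the genes tested in GC content, and Ski, at 55.6%, above 80.9%. In both groups the libraries of Smad6 and of Ski were ordered exactly as their GC slopes, which was the case for 2.18% of all genes tested and for none of the other 8. The slopes also differed between the groups, by 0.167 per 10 percentage points, and this difference cannot be told apart from the treatment. When it was subtracted in proportion to GC content, the log2 changes were -1.23 for Smad6, 0.16 for Ski, 0.77 for Smad7, 0.65 for Smad3, 0.78 for Skil and 0.25 for Smad5, without a test. Smad2 went from 0.0037 to 0.083, and Smad9, Smad4 and Smad1 stood at -1.71, -0.43 and 0.0087.

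**Figure D4:**
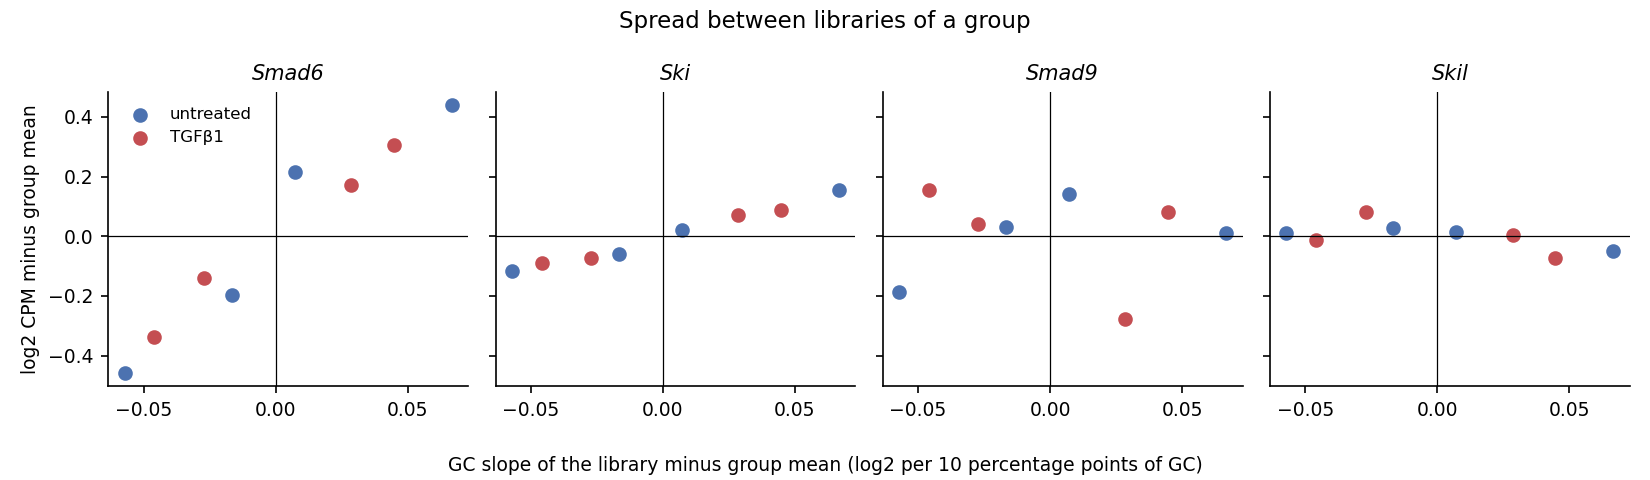
Deviation of log2 CPM from the group mean in each library (vertical axis) against the library's GC slope minus its group mean (horizontal axis, log2 units per 10 percentage points of GC) for 4 genes. Blue points are untreated and red points TGFβ1-treated libraries. Smad6 and Ski rise with the slope in both groups, from -0.46 to 0.44 for Smad6 and from -0.12 to 0.15 for Ski, and Smad9 and Skil do not follow it.

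Other genes of the pathway were described from lists written from general knowledge. Of the 96 genes in the 7 lists, 85 were tested, 40 were higher and 32 lower, and their median log2 fold change was 0.066. The tested genes of each list are to be read against 37.6% higher and 38.0% lower among all genes tested. Among the type I and type II receptors and co-receptors 7 of 13 tested genes rose and 6 fell. The largest rises were those of Bmpr1b (log2 fold change 1.61, from 14 to 23 reads per library to 40 to 64), the endothelial type I receptor Acvrl1 (1.61, also known as ALK1) and its co-receptor Eng (1.21). The activin receptors Acvr2b, Acvr1b and Acvr2a fell, with log2 fold changes of -0.99, -0.67 and -0.42. Acvr2b had few reads, 48 to 58 per untreated and 15 to 36 per treated library. The list as a whole was split, with the receptors that rose coming from the TGFβ as well as the BMP branch. Of the TGFβ receptors, Tgfbr2 and Tgfbr1 had log2 fold changes of 0.54 and 0.16 and are named outside the rule for their role. The groups overlapped for Tgfbr1 and not for Tgfbr2.

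Genes for SMAD turnover and dephosphorylation showed 8 of 15 higher and 5 lower. Pmepa1, which sequesters receptor SMADs and is itself a known TGFβ target, rose by a log2 fold change of 1.85, Smurf1, a ubiquitin ligase of SMAD1 and SMAD5 and a partner of the inhibitory SMADs, by 1.08, and Usp9x, a deubiquitinase of SMAD4, by 0.61. Usp11, Nedd4l and Stub1, a deubiquitinase and a pair of ubiquitin ligases, fell, with log2 fold changes of -0.51, -0.48 and -0.41. Of 11 anchors and adaptors 2 rose and 5 fell. Ranbp2 and Hgs had log2 fold changes of 0.50 and 0.26. Cav1, which internalizes TGFβ receptors, Zfyve9 (SARA), which presents SMAD2 and SMAD3 to the receptor, and the nuclear exporter Xpo1 fell, with log2 fold changes of -0.87, -0.67 and -0.55. The median of this list was -0.084. Its 2 of 11 higher stand against 37.6% of all genes, and its 5 of 11 lower against 38.0%.

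Among co-repressors other than Ski and Skil, 5 of 12 tested genes rose and 5 fell. Bcl6, a transcriptional repressor, and the histone deacetylase Hdac1 were among those that rose, with log2 fold changes of 0.55 and 0.50. Tgif2, a SMAD-binding homeobox repressor, Sin3a and Ncor1, which SKI can recruit, fell, with log2 fold changes of -0.65, -0.40 and -0.35. Relatives of Ski were at or near 0, with no read for Skor2 and Dach1 and at most 1 read per library for Skor1. Of 13 co-activators and partner factors tested, 6 rose, led by Runx1 (0.86), Fos (0.69) and the acetyltransferase Ep300 (0.39), and 5 fell, led by Atf3, Kat2a and Sp1 (-0.40, -0.37 and -0.25).

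Of 13 known SMAD2/3 target genes tested, 12 rose, and Col1a2 did not pass the test (log2 fold change -0.08, with an FDR of 0.206 in edgeR's likelihood ratio test and of 0.185 in its quasi-likelihood test). The list's median was 0.99, with the largest rises in Ccn2 (2.06), Acta2 (1.89) and Pmepa1 (1.85). Of the genes that rose, Tgfb1 (0.31) and Ltbp3 (0.26) had groups that overlapped. The difference in GC trend was subtracted for the 10 genes only, not for the genes of these lists. Of 10 known SMAD1/5 target genes tested, 7 fell and 1 rose, with a median of -0.39. Grem1, a secreted BMP antagonist, Msx1 and Atoh8 fell, with log2 fold changes of -2.30, -1.29 and -0.99, and Bmper, a secreted BMP regulator, rose by 0.87 on the log2 scale. Id1, a direct BMP target, was among the 7 by the likelihood ratio test (-0.37, FDR = 0.042 from edgeR) but not by the quasi-likelihood test (FDR = 0.0654). The difference between these lists was not tested. The lists were written with earlier results of these libraries known, and Pmepa1 and Bambi each stand on 2 of them.

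**Figure D5:**
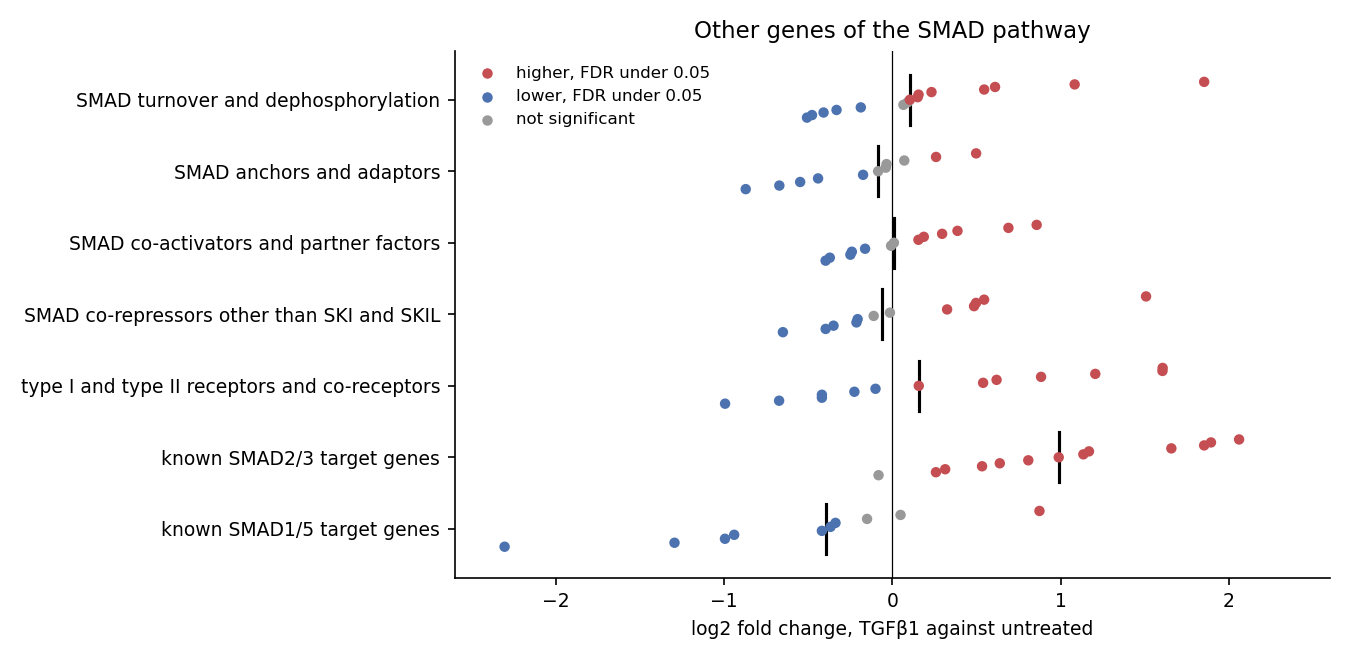
Log2 fold change, TGFβ1 against untreated, of each tested gene in 7 lists of the SMAD pathway. Red points were higher and blue points lower at an FDR under 0.05, grey points were not significant, and the black bar is the list's median. The SMAD2/3 target genes lie mostly right of 0, with a median of 0.99, and the SMAD1/5 target genes mostly left of it, with a median of -0.39.

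The 8 libraries held 18952504 to 26386941 counts each. Most defining markers of the labelled cell type were at or near 0 reads. Of 8 lymphatic endothelial markers 3 were tested (Pdpn, Flt4 and Nrp2). Prox1 had 0 to 2 and Lyve1 0 to 3 reads per library, and Ccl21a had none. Of 8 pan-endothelial markers 2 were tested. Pecam1 had 1 to 5 and Cdh5 0 to 2 reads per library, and Erg and Tie1 had none. The summed level of the lymphatic list was 412 to 448 CPM in untreated and 426 to 440 CPM in treated libraries, mostly from Pdpn. Pdpn fell (log2 fold change -0.13), while Flt4 and Nrp2 rose (0.44 and 0.41). The sum of the pan-endothelial list was 11.5 to 13.1 CPM in untreated and 22.2 to 24.1 CPM in treated libraries, mostly from Kdr. Of 8 fibroblast and mural markers 6 were tested, with Pdgfrb, Cspg4 and Des higher (log2 fold changes 0.63, 0.85 and 2.09) and Dcn, Pdgfra and Thy1 lower (-1.91, -1.47 and -1.07), and their sum went from 605 to 642 CPM down to 273 to 300 CPM. Of the 7 epithelial and the 7 haematopoietic markers 2 each were tested, with 0 to 7 reads for Epcam and 0 to 1 for Ptprc. The epithelial sum was 34.1 to 40.4 CPM without and 37.3 to 43.9 CPM with TGFβ1, nearly all from Krt14 (669 to 1057 reads per library), and Krt18 rose from a low level (log2 fold change 2.47, 2 to 47 reads). The haematopoietic sum was 6.02 to 8.25 CPM without and 16.2 to 18.6 CPM with TGFβ1, mostly from Cd68. The part of these marker changes in the SMAD results was not tested. In RNA of whole cultures, fewer cells that express a gene and less RNA per cell cannot be told apart.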

How the data were processed

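RNA of SV-LECs was measured in 4 untreated and 4 TGFβ1-treated libraries, grouped by their labels. Per the labels, the authors used bcl2fastq 2.20.0.422, STAR 2.7.3a and featureCounts 1.5.1 with GRCm38 and deposited raw read counts per gene. The annotation release and the use of strand in counting are not given in the sources used here. Total counts were between 18952504 and 26386941 per library, so that 3 reads equal 0.113 to 0.162 CPM, which covers counting error only.

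The tests used edgeR 4.0.16 under R 4.3.3, after the study's Methods, with filterByExpr, TMM, estimateDisp, glmFit and glmLRT, with FDRs over all 13818 genes. Intervals are log2 fold changes with a normal 95% range from their standard errors. GENCODE M21, in which 55230 of 55471 identifiers were found, gave lengths, positions and GC content, and promoters came from RefSeq (GRCm38.p6), with windows of 6 members read. The scripts were tested on simulated data.

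The 10 genes and all lists were chosen with earlier results of these data known. The text names all 10 genes, the 3 genes with the largest called change in each direction of each pathway list, and marker genes, except 1 gene that is not reported here. Genes named beyond that were chosen for their role, or after their values were seen. They were Tgfbr1, Tgfbr2, Tgfb1, Ltbp3, Col1a2, Skor1, Skor2, Dach1, Bambi, Kdr, Cd68, Gm27301, Id1, Krt14, Krt18 and other markers. The alternatives, with DESeq2 1.42.0 among them, are given in the closing section.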

Additional observations from a re-analysis of the deposited data

Results flagged for a closer look

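Untreated library 1 lay apart from the other untreated libraries for Smad5, at 99.9 CPM against 103 CPM in the nearest library. The gap was 0.835 of the group's range, above Dixon's critical value for 4 values. Of 20 sets of 4 values examined (10 genes in both groups), 1 was marked in this way, and chance marks about 1 in 20. Without this library the log2 fold change of Smad5 was 0.15 (FDR = 0.0137 from edgeR's likelihood ratio test).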

How the results depend on the processing

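Smad3, Smad4, Smad6, Smad7, Smad9, Ski and Skil kept their direction and their significance in every refit listed here, namely DESeq2 and the quasi-likelihood test, size factors from DESeq2, total counts, other filters on low counts, an FDR of 0.01, a prior count of 2, the replicate block and each library left out in turn. Smad5 lost significance with total counts alone (log2 fold change 0.097), which left 4 instead of 5 genes higher, and 3 genes were lower in each. A covariate of GC slopes (chosen after seeing the data) is not counted, since it was centred within the groups and could hardly move a fold change. Smad2 and Smad1 were significant in no refit, and their signs were not stable: Smad2 was -0.064 with total counts, -0.027 without a filter and between -0.031 and 0.019 with 1 library left out, and Smad1 was -0.027 with total counts. With the length of the longest transcript in place of all exons, BMP receptor SMADs made up 47.5% of receptor SMADs in untreated and 41.8% in treated libraries. Same-numbered libraries of the groups did not deviate together (correlations from -0.193 to -0.034 across genes). GC slopes fell from untreated library 1 to 4 but were higher in treated libraries 3 and 4 than in 1 and 2. These correlations therefore cannot show whether the numbers pair libraries. With the replicate block 5 of the 10 genes were higher and 3 lower, as without it. Of the pathway list genes 35 to 41 were higher and 30 to 36 lower across these settings. The subtraction of the GC trend, also chosen later, reversed no sign. The p-values cover technical variation only, and changes of Smad1 and Smad2 within their intervals were not detectable.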
